A study of Mus musculus with 3 samples.

Results

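Chemokines and their receptors were followed here in cultured mouse aortic endothelial cells of mice with and without a knockout of the serine/threonine kinase Pim1. The members were chosen by gene name alone: every array probe whose name in the files was that of a chemokine ligand, a chemokine receptor or an atypical chemokine receptor, under current or older symbols. This took 73 of the 41174 probes, which stood on 82 spots and measured 56 of the 19757 named genes. They comprised 35 ligands, 16 receptors and 5 atypical receptors.

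The cells had been isolated from aortae of Pim1 knockout and wild-type FVB/N mice, whose donors the labels gave as females of 12 weeks, and RNA was taken 24 hours after seeding. The labels did not say which stretch of Pim1 was deleted, how many animals gave each culture, or whether the wild-type RNA was 1 pool. Each of 3 two-colour arrays compared knockout RNA in Cy5 (red) with wild-type RNA in Cy3 (green), and the labels named them biological replicates 1 to 3. No array had its dyes swapped, so a dye effect and the genotype cannot be told apart. All ratios are knockout over wild type on the log2 scale, errors given with ± are SDs over 3 arrays, and p-values speak to the spread among these arrays alone, whose small number sets the precision.

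Chemokines are small secreted or membrane-anchored proteins that guide leukocytes along concentration gradients. They bind receptors that signal through inhibitory G proteins, while atypical receptors take chemokines up without that signalling. Endothelial cells hold chemokines on heparan sulfate chains of their surface, where rolling leukocytes meet them, and many of the ligands are induced by tumour necrosis factor, interleukin-1 or interferon. In leukaemic cells PIM1 is known to phosphorylate the tail of the receptor CXCR4.

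The targeted gene, Pim1, was above background on all 3 arrays in both channels, at 179, 163 and 144 in the knockout channel and 350, 364 and 285 in the wild type. It fell by 1.04 on the log2 scale (limma adjusted p = 0.00294), and whether its probe lies in the deleted stretch is not known. The labels and the arrays disagreed on sex and on cell type. Both channels were labelled female, yet Xist stood above background on all 3 arrays in the wild-type channel and on none in the knockout channel. Eif2s3y, Ddx3y and Kdm5d, all on the Y chromosome, showed the reverse, so sex and genotype cannot be told apart. Among 12 endothelial markers, the knockout channel showed 3 above background throughout and the wild-type channel 5, and the defining genes Pecam1, Cdh5, Tie1 and Erg were undetected in both. Log2 ratios of arrays 2 and 3 correlated across tested probes at r = 0.905, and array 1 correlated with them at r = 0.680 and 0.698. Probes are not independent replicates.

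In the knockout channel, 5 of the 24 chemokine and receptor genes that could be tested were higher and 3 were lower. The 5 were Cxcl5, Cxcl16, Cxcl1, Ccl2 and Cx3cl1, and the 3 were Ccl9, Ccl5 and Cxcl10. All 8 were ligands, which makes 42.1% of the 19 ligands tested, and neither of the 2 receptors nor any of the 3 atypical receptors tested passed the threshold. A gene was tested where its probe was well above background in either channel on at least 2 of 3 arrays, and was called at an adjusted p under 0.05 (limma, Benjamini-Hochberg over all tested probes). By the same rule 20.1% of all 13499 genes tested were called, 8.66% of them higher and 11.4% lower, against 33.3% of the members. The members' median log2 ratio was 0.19 and that of all genes −0.02. These shares describe 24 genes and single out nothing about the family. Centring each array on its median left the same 8 members called, while the share of higher calls among all called genes went from 43.1% to 55.6%. The number called rested strongly on single arrays. Without array 1 it was 12 higher and 5 lower, with 41.5% of all genes called. Without array 2 or without array 3 it was 3 higher and 2 lower each time, with 5.02% and 4.75% of all genes called. Adjusted p-values given without 1 array come from limma fits on 2 arrays and lean on variance pooled over all tested probes.

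**Figure D1:**
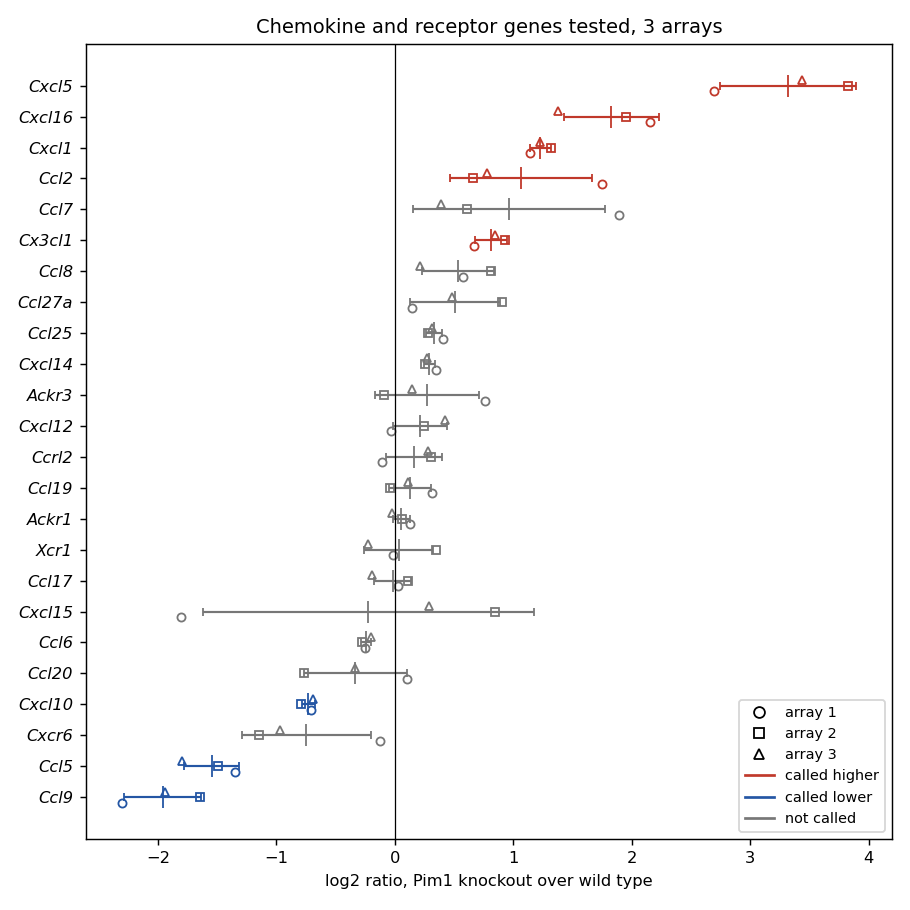
Log2 ratio of knockout over wild type (x axis) for the 24 chemokine and receptor genes tested (y axis), with a symbol for each of 3 arrays, a vertical tick at the mean and a bar of 1 SD to each side. Cxcl5 stood highest at 3.32 and Ccl9 lowest at −1.96, and Cxcl15 had the widest spread.

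The probes that measured these genes carried 60 bases each. The first 30 bases, read 5′ to 3′ along the transcript strand from the array files, are shown for the 8 called genes. Each gene's call rests on the whole of that single probe, its brightest. The lower pair shows the probes that split Cxcl12, the gene whose probes disagreed.
Cxcl5: agacatttgatgtcttcgtagtatggcata
Cxcl1: agaagtgcagagagatagagtttagtatta
Cxcl16: tgctttgagcgcaaagagtgtggaactggt
Cx3cl1: tcccagagcagaatgtgggccgtaacaatc
Ccl2: tgtaggagtgaccagtgtgacagtgaacta
Ccl5: tctcagctgctccgaggctctgcacagcaa
Ccl9: caactaggatgaaataaattctgccttagc
Cxcl10: gctttgcattgtatatggaagaacttgtgt
Cxcl12, variant 1 probe: gaattaatcataaacggaagtttaaatgag
Cxcl12, variant 2 probe: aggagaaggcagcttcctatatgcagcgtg

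Among the CXC ligands that draw neutrophils through Cxcr2, Cxcl5 and Cxcl1 rose. Signals are given in arbitrary units after normalisation within and between arrays. The Cxcl5 probe (chr5:91836379-91836438, mm8, plus strand) gave 1782, 3621 and 2729 in the knockout channel of arrays 1 to 3. In the wild-type channel it gave 275, 256 and 252. The wild-type values were nearly level while every knockout value lay several times above them, with no overlap. The mean log2 ratio was 3.32 ± 0.57, a 9.97-fold rise (limma adjusted p = 0.000988) and the largest among the tested members. In a bulk culture more cells of a kind and more RNA per cell cannot be told apart, here or for any gene that follows.

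Cxcl1 (chr5:91968019-91968078, plus strand), known in the mouse as KC, read 4766, 8062 and 6520 in the knockout channel and 2163, 3243 and 2783 in the wild type. Both channels were lowest on array 1, and the ratio hardly moved: 1.14, 1.31 and 1.23 on the 3 arrays. Its mean of 1.23 ± 0.09 was a 2.34-fold rise (adjusted p = 0.00159). Cxcl15, a lung-restricted neutrophil attractant, was erratic, with log2 ratios of −1.80, 0.85 and 0.28 and a second probe at −1.28, 0.76 and 0.24 (adjusted p = 0.809 and 0.907). Both channels of array 1 stood apart, the wild type more so. In the wild type the brighter probe read 267 there, against 80.6 and 92.6 on the other arrays. In the knockout channel it read 76.6 there, not above background, against 145 and 113. Without array 1 the Cxcl15 probes turned to 0.56 and 0.50 and both passed (adjusted p = 0.000736 and 0.00197), so sign and call rest on that array. Cxcl2 and Ppbp, further neutrophil attractants, were not above background in either channel on any array.

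The 2 membrane-anchored chemokines of the mouse, Cxcl16 and Cx3cl1, were both higher in the knockout channel. Cxcl16, the ligand of Cxcr6 and a scavenger receptor for oxidised lipoprotein, was measured by a probe whose mapped ends (chr11:70272214-70274955, minus strand) lay further apart than its own length. That probe read 2562, 2473 and 1978 in the knockout channel against 577, 641 and 762 in the wild type. The channels stayed well apart on every array, at 1.83 ± 0.40 or 3.54-fold (adjusted p = 0.00273). A second, dimmer Cxcl16 probe (chr11:70270473-70270532) gave 1.12, 1.63 and 1.63, a 2.75-fold rise (adjusted p = 0.00294), so both probes of the gene passed.

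Cx3cl1, or fractalkine, which tethers and attracts cells bearing Cx3cr1, read 8734, 6987 and 8487 in the knockout channel and 5506, 3663 and 4733 in the wild type (chr8:97671414-97671473, plus strand). The lowest knockout value lay above the highest wild-type value. The log2 ratio was 0.81 ± 0.14, a 1.76-fold rise (adjusted p = 0.00705), and it no longer passed without array 2 (adjusted p = 0.0802) or without array 3 (adjusted p = 0.0831). A second Cx3cl1 probe, designed on a cloned cDNA and lying 9.443 kb towards lower coordinates, was dim, with signals of 79.0 to 101, and gave 0.18 ± 0.15 (adjusted p = 0.298).

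Ccl2, Ccl7 and Ccl8 belong to the monocyte chemoattractant proteins, of which Ccl2 and Ccl7 act through Ccr2. Ccl2 (chr11:81853343-81853402, plus strand) read 45207, 43349 and 44973 in the knockout channel and 13439, 27376 and 26214 in the wild type. The knockout values were level, and the wild-type value of array 1 was well below those of the others, so the log2 ratios were 1.75, 0.66 and 0.78. The mean of 1.06 ± 0.60, a 2.09-fold rise, passed with an adjusted p of 0.0331. It did not pass without array 2 (1.26, adjusted p = 0.0977), without array 3 (1.21, adjusted p = 0.126) or when dim probes were kept in the test (adjusted p = 0.0713). Ccl2 had 10 spots on each array, whose log2 ratios varied with an SD of 0.028 to 0.035, far less than the arrays did among themselves. No spot was flagged as saturated on any array.

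Ccl7, the neighbour of Ccl2, showed the same order of arrays, with log2 ratios of 1.89, 0.61 and 0.39 and wild-type signals of 4169, 8748 and 7961. Its mean of 0.96 ± 0.81 did not pass (adjusted p = 0.0861), nor did its second probe at 1.11 ± 0.87 (adjusted p = 0.0707). Without array 1 it passed at a lower value of 0.50 (adjusted p = 0.00112). Ccl8, a ligand of Ccr8 in the mouse, read 0.57, 0.81 and 0.21, a mean of 0.53 ± 0.30 with an adjusted p of 0.0561. It passed under 7 of 14 distinct alternative settings, at 1.14 from the scanner software's own ratio (adjusted p = 0.0288). Ccl12, the remaining Ccr2 ligand of this region, and Ccl11 were not above background on any array.

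**Figure D2:**
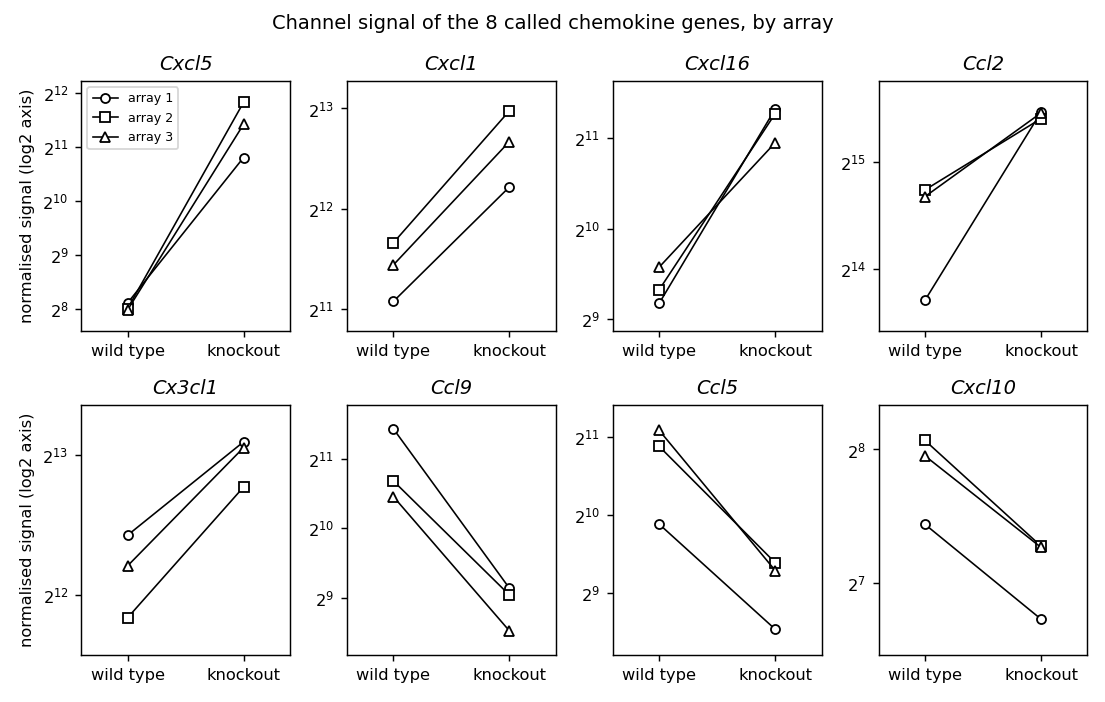
Normalised signal (log2 axis, arbitrary units) of the wild-type and knockout channels for the 8 called ligands, with a line joining the channels of each of 3 arrays. The 2 channels overlap for none of the 8. These were chosen by their calls on the same values, and the share over all genes was not computed. For Ccl2 the wild-type value of array 1 lies apart from the other 2.

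Ccl9 and Ccl5, which lie close together on chromosome 11, were lower in the knockout channel. Ccl9 (chr11:83390916-83390975, minus strand), a rodent chemokine that binds Ccr1, read 563, 526 and 367 in the knockout channel and 2771, 1645 and 1406 in the wild type. Each array showed a fall, of which array 1 had the deepest. The log2 ratio was −1.96 ± 0.33, or 3.89-fold lower (adjusted p = 0.00144). Ccl6, a rodent ligand of the same receptor, was never above background in the knockout channel and was above it on 2 arrays in the wild type, with signals of 80.5, 98.3 and 92.4 there. It was at least 1.17-fold lower and did not pass (adjusted p = 0.132), while it passed under 3 of 13 alternatives, at −2.03 from the scanner software's own ratio (adjusted p = 0.00164).

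Ccl5 (chr11:83341989-83342048, minus strand), known as RANTES, an attractant of T cells and monocytes, read 370, 670 and 625 in the knockout channel and 943, 1884 and 2174 in the wild type. Both channels were lowest on array 1, and the highest knockout value stayed below the lowest wild-type one. Its log2 ratios of −1.35, −1.49 and −1.80 averaged −1.55 ± 0.23, or 2.92-fold lower (adjusted p = 0.00165). The second Ccl5 probe, 0.151 kb away, gave −1.36 ± 0.30 (adjusted p = 0.0038). Ccl3 and Ccl4, further members of this stretch of chromosome 11, were not above background on any array.

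Cxcl10 is 1 of 3 interferon-inducible ligands of Cxcr3, and the others, Cxcl9 and Cxcl11, were not above background on any array. Cxcl10 (chr5:93421955-93422014, minus strand) was dim, at 106, 155 and 154 in the knockout channel and 173, 268 and 248 in the wild type. Both channels were lowest on array 1, and the log2 ratio was even, at −0.71, −0.79 and −0.69. The mean of −0.73 ± 0.06 was 1.66-fold lower (adjusted p = 0.00715). It did not pass without array 2 (adjusted p = 0.0845) or without array 3 (adjusted p = 0.0790). The offset of 50 that was added before the logarithm pulls the ratio of so dim a probe towards 0.

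Cxcl12, the ligand of Cxcr4 and Ackr3, was read by a pair of probes that disagreed. The array annotated them to transcript variants 1 and 2 of the gene, whose 3′ ends are known to differ. The variant 2 probe (chr6:117146828-117146887, plus strand) read 74975, 66619 and 70861 in the knockout channel and 76526, 56187 and 52823 in the wild type. These ranges overlapped, and the log2 ratio of 0.21 ± 0.23 did not pass (adjusted p = 0.291), although without array 1 it did, at 0.33 (adjusted p = 0.0232). The variant 1 probe (chr6:117140075-117140134, plus strand) read 1295, 1598 and 1514 in the knockout channel and 14448, 10759 and 11101 in the wild type. Every knockout value was far below every wild-type value, at −3.04 ± 0.39 or 8.20-fold lower (adjusted p = 0.000558).

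The 2 Cxcl12 probes lay 6.753 kb apart, and their log2 ratios differed by −3.45, −3.00 and −3.30 on the 3 arrays (variant 1 minus variant 2), a mean of −3.25 ± 0.23. This pair was singled out after its values were seen, and an exact two-sided sign-flip test over 3 arrays cannot go below p = 0.25, so no p is given for the difference. Each gene's value here is that of its brightest probe, which for Cxcl12 was the variant 2 probe, and with the mean of its probes the gene counted as lower at −1.41 (adjusted p = 0.00352). In all, 7 members had 2 tested probes, and for the other 6 both means had the same sign.

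**Figure D3:**
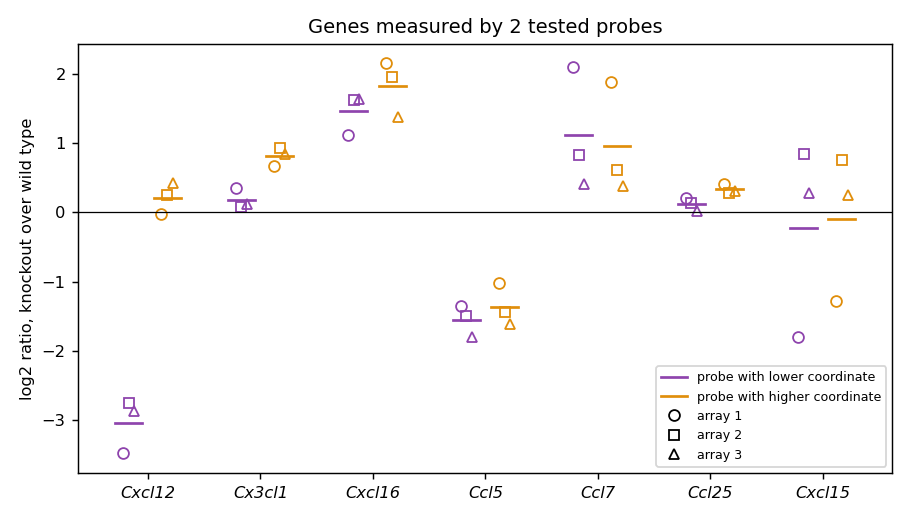
Log2 ratio of knockout over wild type (y axis) on each of 3 arrays for the 7 genes with 2 tested probes, ordered by genome coordinate within each gene, with a horizontal bar at each probe's mean. The probes of Cxcl12 stand far apart, at −3.04 and 0.21.

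The remaining ligands tested did not pass. Ccl25, which guides T cells through Ccr9, gave 0.33 ± 0.07 (adjusted p = 0.0666) with a second probe at 0.12 (adjusted p = 0.443). Ccl27a, a ligand of Ccr10 that the array lists as Ccl27, gave 0.14, 0.90 and 0.49, a mean of 0.51 ± 0.38 (adjusted p = 0.0895). Cxcl14, a chemokine made constitutively by many epithelia and fibroblasts, gave 0.29 ± 0.05 (adjusted p = 0.089). All 3 genes stood above background throughout, and without array 1 Ccl25 passed at 0.29 and Ccl27a at 0.69 (adjusted p = 0.0441 and 3.83e-05). Ccl27a and Ccl19 lie in a stretch of mouse chromosome 4 with near-identical gene copies, which a probe may not separate.

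Dimmer still were Ccl20, Ccl17 and Ccl19, the ligands of Ccr6, Ccr4 and Ccr7. Ccl20 gave −0.34 ± 0.44 (adjusted p = 0.262), Ccl17 −0.02 ± 0.15 (adjusted p = 0.927) and Ccl19 0.13 ± 0.18 (adjusted p = 0.498). Ccl20 passed without array 1, at −0.55 (adjusted p = 0.000583). Another 16 ligands were not tested because they rose above background in neither channel on any array. Besides those already named they included Ccl1, Ccl22, Ccl24, Ccl28, Cxcl13, Pf4 and Xcl1. Such a reading is a limit of detection and does not show that the RNA was missing.

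Receptors were mostly below detection. Only Cxcr6 and Xcr1 among 16 could be tested. Cxcr6, the receptor of Cxcl16, read 161, 101 and 95.6 in the knockout channel and 176, 224 and 187 in the wild type. The channels did not overlap, but array 1 showed almost no difference, and the log2 ratio of −0.75 ± 0.54 did not pass (adjusted p = 0.0674). Its knockout signal was above background on arrays 1 and 2 only. It passed under 4 of 13 alternatives, such as −1.16 with an offset of 0 (adjusted p = 0.0420). Without array 1 it gave −1.06 (adjusted p = 1.94e-08), in a fit on 2 arrays that called 41.5% of all genes. Xcr1, the receptor of Xcl1 on a class of dendritic cells, read −0.02, 0.35 and −0.23 (adjusted p = 0.907). Ccr1, Ccr1l1, Ccr2, Ccr4, Ccr6, Ccr7, Ccr8, Ccr10, Cx3cr1 and Cxcr3 were above background on no array.

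Ccr3, Ccr9 and Cxcr4 were above background on 1 array each, in wild-type RNA only, and were not tested. The signalling receptors of Ccl2 (Ccr2), Cx3cl1 (Cx3cr1), Ccl9 (Ccr1) and Cxcl10 (Cxcr3) were thus below detection on these arrays. Cxcr2, the receptor of Cxcl5 and Cxcl1, stands on the array under an older symbol that the name rule did not take. The brighter of its probes gave 0.24 ± 0.17 and did not pass (adjusted p = 0.19), and the other was not above background.

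Atypical receptors gave no call. Ackr3, which removes Cxcl12 from the surroundings of cells, was bright, at 13640, 11012 and 11871 in the knockout channel and 8071, 11750 and 10720 in the wild type. The channels overlapped, and only array 1 showed a clear difference, so that the mean of 0.27 ± 0.44 did not pass (adjusted p = 0.364). Ackr1, which carries inflammatory chemokines across venular endothelium, was above background on 2 arrays in wild-type RNA and on none in the knockout. Its signals of 82.3, 86.1 and 87.9 against 75.5, 82.6 and 89.3 overlapped and give no fold (adjusted p = 0.75). Ccrl2, a non-signalling binder of chemerin, was dim, above background on array 2 alone in the knockout channel and on array 1 alone in the wild type. It gave 0.16 ± 0.23 (adjusted p = 0.436). Without array 1 it passed at 0.29 (adjusted p = 0.0436), where its wild-type signal was not above background. Ackr2 was above background on 1 array in the wild-type channel and Ackr4 on none.

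Many chemokine genes sit in clusters, and the calls are given here by cluster. On chromosome 5, Cxcl5, Ppbp, Pf4, Cxcl15, Cxcl1 and Cxcl2 lay together between 91836379 and 91980767 (mm8). Among these 6 genes 3 were tested, and the 2 called were both higher. The other tested gene, Cxcl15, was not called and had a negative mean of −0.22. Cxcl9, Cxcl10 and Cxcl11 followed on the same chromosome between 93398365 and 93436448, where the 1 gene tested was lower. On chromosome 8, Ccl22, Cx3cl1 and Ccl17 lay between 97639938 and 97701058. There 2 were tested, of which Cx3cl1 was higher and Ccl17 was not called. Groups on chromosomes 4 and 9 held tested members without a call.

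On chromosome 11, Ccl2, Ccl7, Ccl11, Ccl12, Ccl8 and Ccl1 lay between 81853343 and 81993088. The 3 tested there all had positive means, and 1 was called. Ccl5, Ccl9, Ccl6, Ccl3 and Ccl4 lay between 83341989 and 83480804, where the 3 tested had negative means and 2 were called. Only the stretches from Cxcl5 to Cxcl2 and from Ccl5 to Ccl4 held more than 1 call, so calls could differ in direction only there. Over all genes tested, 8.66% were called higher and 11.4% lower. With so few tested genes in each stretch, the calls by cluster are a description of where they lie.

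**Figure D4:**
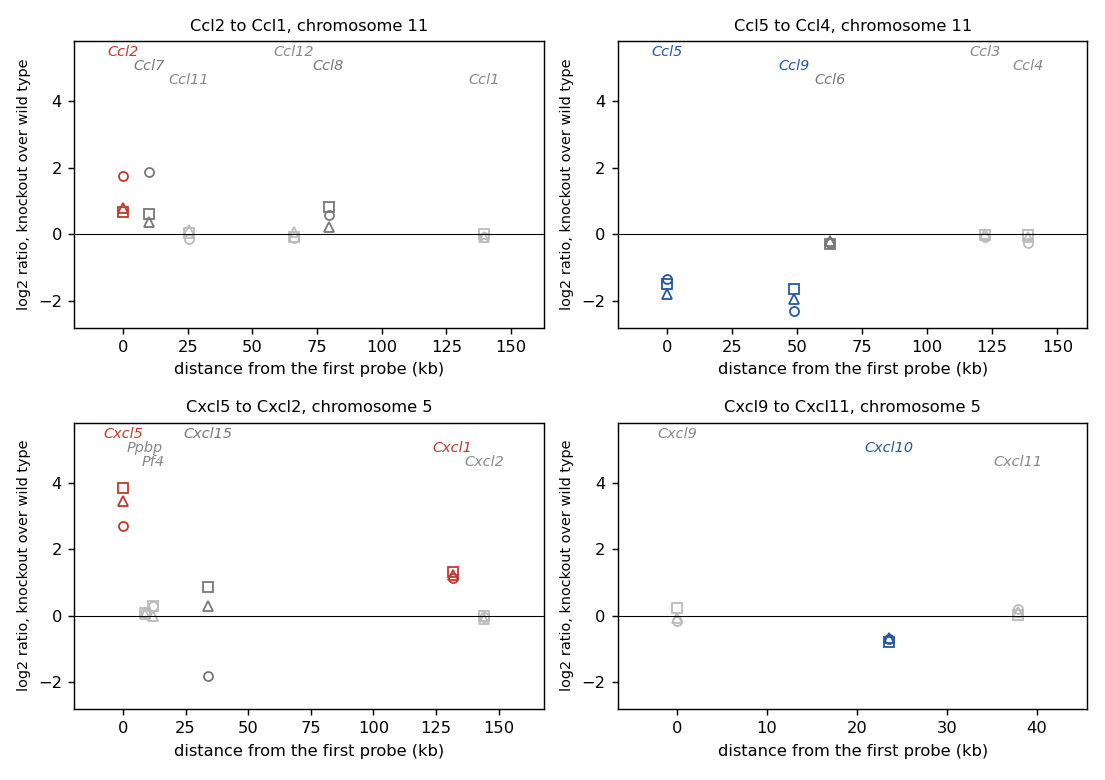
Log2 ratio of knockout over wild type (y axis) on each of 3 arrays (circle, square and triangle for arrays 1, 2 and 3) against distance from the first probe in kb (x axis) for 4 groups of neighbouring chemokine genes, with called higher genes in red, called lower genes in blue, tested genes without a call in dark grey and untested genes in light grey. The group that starts at Cxcl5 holds 2 higher calls and the group that starts at Ccl2 holds 1. The group that starts at Ccl5 holds 2 lower calls and the group that starts at Cxcl9 holds 1.

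Promoters were available for 19 of the 24 tested members, including 4 of the 8 called: Cxcl1, Cx3cl1, Ccl9 and Cxcl10. Cxcl1 and Cxcl10 are shown because they moved in opposite directions while both held letters of the kappaB element, the binding motif of NF-kB. The kappaB letters searched were GGGANNNNCC, or GGNNNNTCCC on the other strand, and 20.7% of all 32851 promoters of this length held them. The interferon element was searched as TTTCNNTTTC or GAAANNGAAA and was held by 3.44%. Each stretch runs from 250 bases before the start site to 50 bases from it onwards, taken from RefSeq on GRCm38.p6, with matches in capitals.
Cxcl1: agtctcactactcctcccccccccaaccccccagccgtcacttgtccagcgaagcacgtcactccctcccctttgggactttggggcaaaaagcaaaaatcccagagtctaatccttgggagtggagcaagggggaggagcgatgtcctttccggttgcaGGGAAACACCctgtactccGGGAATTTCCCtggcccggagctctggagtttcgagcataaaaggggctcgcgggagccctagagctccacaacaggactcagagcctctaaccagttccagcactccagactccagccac
Cxcl10: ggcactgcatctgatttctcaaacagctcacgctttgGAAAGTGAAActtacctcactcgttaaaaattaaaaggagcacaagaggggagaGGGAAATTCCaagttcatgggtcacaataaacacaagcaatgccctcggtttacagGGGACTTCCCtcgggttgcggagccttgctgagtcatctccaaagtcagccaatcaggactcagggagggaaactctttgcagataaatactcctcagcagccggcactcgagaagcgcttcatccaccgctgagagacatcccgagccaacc

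The Cxcl1 promoter (chr5:90890995-90891294, plus strand) held 3 kappaB matches, which began at −90, −71 and −70 from the start site, the last pair overlapping on opposite strands. The Cxcl10 promoter (chr5:92348840-92349139, minus strand) held 2, at −159 and −103, and 1 interferon element at −213. Neither motif was in the windows of Cx3cl1 or Ccl9. A match describes letters in a window and says nothing on binding in these cells. The 19 tested members with a promoter had 24 windows, of which 8 held a kappaB match, against 20.7% of all promoters. Counted by gene, with up to 3 windows for a gene, 6 held a match. They were Cxcl1, Cxcl10 and, without a call, Ccl19, Ccl20, Ccl27a and Ccrl2. Ccl27a had 3 windows with a match, of which a pair overlapped. The interferon element was in 3 of the 24 windows, against 3.44% of all promoters, and these were of Cxcl10, Ccl19 and Cxcl14.

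The NF-kB route, which carries tumour necrosis factor and interleukin-1 signals to many chemokine promoters, had 23 of 24 listed genes tested. Of these 4 rose and 2 fell, 26.1% against 20.1% of all genes, and the list's median was −0.07. Without array 1 the count was 7 higher and 6 lower, while 41.5% of all genes were called. Nfkbiz, a nuclear inhibitor-like protein needed for a second wave of inflammatory genes, rose by 1.35 ± 0.12 (adjusted p = 0.00142). Tnfrsf1b, a tumour necrosis factor receptor, rose by 1.30 ± 0.22 and Il1r1, the signalling receptor of interleukin-1, by 1.07 ± 0.09. Tnfaip3, the A20 protein that restrains the route, fell by 1.04 (adjusted p = 0.0026).

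The interferon-gamma route had all 11 genes tested, with 0 higher and 1 lower (9.09% against 20.1% of all genes) and a median of 0.20. This count, like that of all genes, depended on array 1. Without that array 7 were higher and 1 lower, with a median of 0.32, while 41.5% of all genes were called. The gene that fell was Socs1, an inhibitor of the route's kinases, at −0.65 ± 0.16 (adjusted p = 0.0158), and it did not pass with median centring (adjusted p = 0.101) or without array 2 or array 3 (adjusted p = 0.13 and 0.138).

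Genes that act below chemokine receptors had 20 of 24 members tested, of which 5 were higher and 2 lower (35.0% against 20.1% of all genes), with a median of −0.13. With the scanner software's ratio 4 passed, while 18.3% of all genes were called. Without array 2 or array 3 only 2 passed, 1 in each direction, while 5.02% and 4.75% of all genes were called. Gng2, a gamma subunit of G proteins, rose 4.91-fold, at 2.30 ± 0.25 (adjusted p = 0.000571). Gnai1, an inhibitory alpha subunit, fell by 1.03 and Rhoa, a GTPase of cell contraction, by 0.91 (adjusted p = 0.00252 and 0.00352). Gng12, another gamma subunit, gave 0.60 ± 0.11 (adjusted p = 0.0155). Without array 2 or array 3 neither Rhoa (adjusted p = 0.0506 and 0.0561) nor Gng12 (adjusted p = 0.117 and 0.139) passed. Among 15 genes that cut or present chemokines 13 were tested, and 1 was higher and 0 lower (7.69% against 20.1% of all genes, median 0.09). The higher gene was Sdc4, a heparan sulfate proteoglycan of the cell surface, at 1.10 ± 0.12 (adjusted p = 0.00257). Without array 1 the count was 3 higher and 1 lower, while 41.5% of all genes were called. With median centring or the mean of a gene's probes 2 passed, while 13.8% and 18.7% of all genes were called.

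Markers of other cell types differed between the channels to unequal degrees, with the largest shares called among mesothelial and fibroblast markers. Mesothelial markers had a summed normalised signal of 6829 to 7297 in the knockout channel and 72545 to 94740 in the wild type, with 7 of 9 called lower, none undetected and a median log2 ratio of −1.45. These sums are led by the few probes with the strongest signal. Fibroblast markers summed to 213376 to 240935 and 178061 to 211772, with 6 of 8 called higher and 1 lower and a median log2 ratio of 2.26. Leukocyte markers summed to 2851 to 3200 and 4176 to 5457, with 2 of the 7 tested called lower, and Adgre1, Itgam, Itgax, Laptm5 and Tyrobp among 14 never above background. Smooth muscle and pericyte markers summed to overlapping ranges of 53958 to 57098 and 52293 to 64602, with 1 of 6 called higher and 2 lower. The endothelial markers summed to 8259 to 11061 and 4148 to 4853, with 2 of the 5 tested called higher. These cell types can themselves make chemokines, and their part in the results was not tested.

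Array 1 differed from the mean of arrays 2 and 3 by more than 0.5 in 9 of the 24 tested members (37.5%), against 24.3% of all genes tested. Its gap was −2.37 for Cxcl15, 1.39 for Ccl7 and 1.03 for Ccl2. It was −0.93 for Cxcl5, 0.93 for Cxcr6 and 0.73 for Ackr3. The sign was the same on all 3 arrays for 15 of the 24 tested members. These include all 8 called members, whose calls rest on the same ratios, so their agreement is no separate support.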

How the data were processed

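RNA of Pim1 knockout and wild-type cells was compared on 3 two-colour arrays of 60-mer probes, which the file headers place on 1 slide with 1 scan date. The deposited scanner files gave, per the file headers, pixel intensity and local background intensity for 45018 spots in each channel, and a log10 ratio of red over green. They came from Agilent Feature Extraction 9.5.3.1 (per the submitters' processing notes). The authors' deposited value table repeated that log10 ratio exactly (largest difference 0, median 0), which settles its scale and direction.

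Mean intensities were background-corrected (normexp, offset 50, local median background), and loess within arrays gave log2 ratios, with 1639 control spots and the outlier-flagged spots (202, 204 and 230 per array, 0 of them a member's) at weight 0. Spots of the same probe were averaged. Channel signals were taken after loess and Aquantile normalisation and still hold the offset, so levels of different probes are not comparable. "Above background" means the scanner software's own flag for a signal well above background, carried by 53.9% to 57.2% of probes in knockout RNA and 58.4% to 62.6% in wild-type RNA.

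Mean log2 ratios were tested against 0 by lmFit and eBayes of limma 3.58.1 (R 4.3.3). Each gene took the value of its brightest tested probe on its own strand. Where a channel was below background on every array, the fold is a bound, set against the higher of the probe's own signal and the lowest signal above background on each array. Names came from RefSeq tables of GRCm38.p6, and 8059 of 41174 probes had none. Probe positions follow the array files' mm8 build, and where in a gene a probe lies was not annotated here. The steps were tested on simulated data.

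The members, gene lists and tests were chosen with earlier results of these data known. Some members are counted but not reported here by name. Values are given for every member called, every member above background throughout, up to 4 called genes of each list by size, and Pim1. The alternatives changed the background correction (none, offset 0, median pixels), took the software's or the deposited ratio, changed the scaling (median centring, scaling between arrays), the filter (none, both channels), the variance model (intensity trend, robust), the threshold (0.01) or the summary (mean of all probes), or left out 1 array at a time. The software's and the deposited ratio are the same numbers and count as 1 alternative.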

Additional observations from a re-analysis of the deposited data

How the results depend on the processing

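Across 572 single values recomputed under 14 distinct alternatives (the deposited table repeats the software's ratio), 523 kept their direction and side of the threshold, 17 lost the threshold, 24 gained it and 8 reversed. Reversals were Cxcl12, at −1.41 with the mean of its probes; Ccl17, at 0.0019 with median pixels; and the second Cxcl15 probe, at 0.028 with an offset of 0 and 0.71 with the software's or the deposited ratio. Others came when 1 replicate was left out: Xcr1 ran from −0.12 to 0.16, Ccl17 from −0.084 to 0.066, Cxcl15 from −0.76 to 0.56 and its second probe from −0.52 to 0.50. Members called higher then numbered 3 to 12 and lower 2 to 5, and 5 were lower with an offset of 0 or with an intensity trend (3 in the main setting). All genes called (2712) became 965 at an adjusted p under 0.01 and 641 to 5595 without 1 replicate, and genes called in the pathway lists (15) became 9 and 7 to 33. Higher calls made up 43.1% of called genes and 55.6% with median centring, which moved the median of all genes from −0.02 to 0.08. Ccl2 lost its call without a filter and under 0.01, and Ccl2, Cx3cl1 and Cxcl10 lost theirs without replicate 2 or 3, while no other member lost its call. Further members passed under some settings. Without replicate 1 these were Ccl7, Ccl8, Ccl25, Ccl27a, Ccrl2, Cxcl12 and Cxcl15 (higher) and Ccl20 and Cxcr6 (lower). Elsewhere they were Ccl8 (6 distinct settings), Ccl6 and Cxcr6 (3 each), and Ccl25, Cxcl12 and Cxcl14 (1 each). No paired analysis was possible because the arrays form 1 group, beyond the pairing of knockout and wild type that each ratio already holds. Dim probes limit detection: 32 of 56 members could not be tested.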
